A study of Glycine max with 18 samples.

Results

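The comparison described here is the change between 24 and 36 hours after imbibition (HAI) in soybean embryonic axes germinated in paclobutrazol (PBZ): the 3 libraries of the 36 HAI PBZ group against the 3 libraries of the 24 HAI PBZ group. These are 6 of the 18 libraries of the series, which has control axes germinated in water and PBZ axes at 12, 24 and 36 HAI with 3 replicates each. Of the 56044 genes in the deposited table, 33020 had a group mean of at least 1 RPKM (read counts scaled to transcript length and to the mapped reads of the library) at 24 or 36 HAI with PBZ, and these genes were tested. All seeds were of the cultivar BRS 284, each sample pooled the axes of several plates of seeds, and the axes were separated from the cotyledons before poly(A) RNA was sequenced. Both groups compared had germinated in 200 µM PBZ and by their labels differ in time, and the water controls enter only where the time change itself was compared between treatments.

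Germination starts with the uptake of water by the dry seed and is taken to end with the emergence of the radicle, after which the axis grows by cell elongation and, later, by division. Messengers stored from seed maturation, such as those of late embryogenesis abundant (LEA) proteins and oleosins, are lost in this period, while genes of cell wall loosening, lignification and seedling metabolism are switched on. Gibberellins (GA) promote these steps, and PBZ blocks their synthesis at ent-kaurene oxidase, the enzyme that turns ent-kaurene into ent-kaurenoic acid.

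The summed RPKM of the 6 libraries lay between 622290 and 636303, and their relative depths, estimated from the smallest steps between low values, were between 0.736 and 1.59 times that of replicate 1 at 24 HAI. The number of genes with at least 1 RPKM was between 29727 and 30421 at 24 HAI and between 31902 and 32000 at 36 HAI. RPKM keeps no read counts, so no counting interval was attached to a gene, and the spread of the 3 replicates set the precision. The replicates are called biological in the study, but no source used here says what separated them, so the p-values measure the spread between these samples, which may in part be technical. Library replicate 1 at 24 HAI stood apart from its 2 partners: outside the organelle-like genes described at the end, it was the lowest 24 HAI library in 80.4% of the genes that rose and the highest in 72.8% of those that fell. Its part in the results was not tested, and a count that changes without it is given both ways. In such bulk samples, fewer cells of a type and less RNA per cell cannot be told apart. No gene that defines the axis was among the annotated genes, so the tissue label could not be checked by axis markers.

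By the calling rule used, far more genes rose than fell from 24 to 36 HAI with PBZ. A gene was called when its Benjamini-Hochberg adjusted p in limma was at most 0.05 and its change on the log2(RPKM + 0.1) scale was at least 1, a scale that understates the change of lowly expressed genes. By this rule 4668 of the 33020 genes rose (14.1%) and 1474 fell (4.46%), together 18.6%. With the 123 organelle-like genes set apart, 4668 of 32897 rose (14.2%) and 1363 fell (4.14%), and the median change of these 32897 genes was -0.01. Leaving out replicate 1 at 24 HAI gave 4111 rises and 1184 falls over all tested genes. Rises of at least 4-fold numbered 1762 and falls of that size 453, and 211 rises and 71 falls reached 16-fold. Most rises were of genes with low levels: the higher of the 2 group means was under 10 RPKM in 3215 of the 4668. Of all calls, 76.0% were rises on the deposited scale and 61.5% after quantile normalization, which moved the median change of all genes by -0.0961. With no minimum change, quantile normalization gave 7847 rises and 10181 falls, so the excess of rises held for the larger changes only on that scale. The 3 libraries of one time did not overlap with those of the other in 64.3% of all tested genes, in 32.9% higher and in 31.4% lower at 36 HAI, so that separation of the libraries alone was common.

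**Figure D1:**
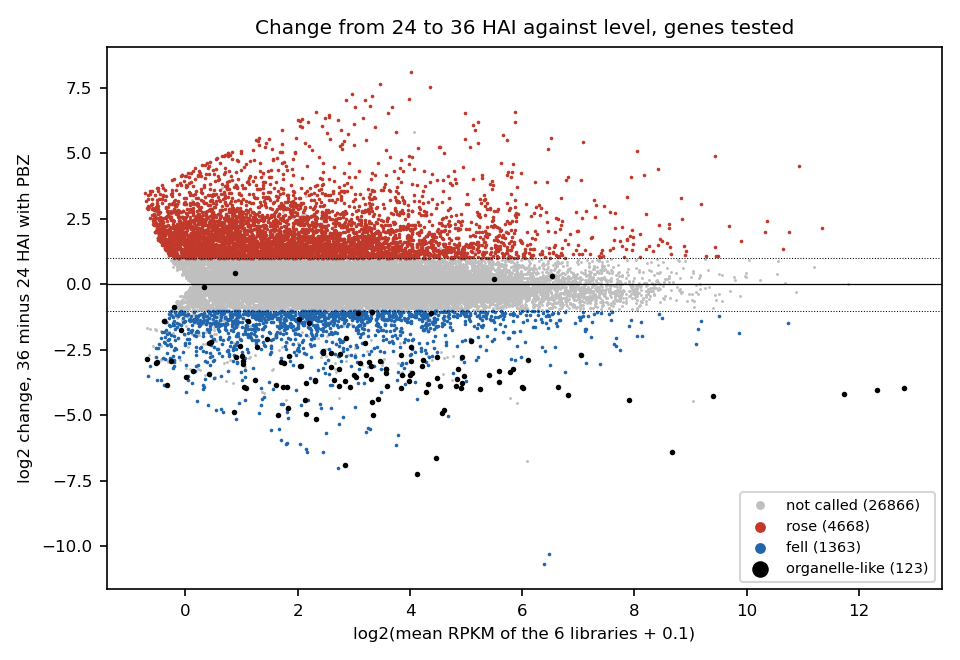
Each point is 1 of the 33020 tested genes, with the log2 of its mean RPKM over the 6 PBZ libraries (plus 0.1) on the horizontal axis and its change from 24 to 36 HAI on the log2(RPKM + 0.1) scale on the vertical axis. Red points are the 4668 genes that rose, blue points the 1363 that fell, grey points genes that were not called and black points the 123 organelle-like genes, which lie mostly below -2; dotted lines mark a change of 1 either way.

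The largest rises were of genes at or near 0 at 24 HAI. Glyma.06G302600, which has no annotation in the tables used, was at 0.0533, 0 and 0 RPKM at 24 HAI and at 38.3, 29.5 and 29.1 RPKM at 36 HAI. Its change was 8.12 ± 0.23 (SE, n = 3 per time; limma, Benjamini-Hochberg adjusted p = 1.8e-05). Glyma.15G169100 and Glyma.10G129100 were listed at 0 in the 3 libraries at 24 HAI and reached 13, 14.5 and 18.9 RPKM and 7.15, 13.7 and 21.9 RPKM at 36 HAI, so that no fold is given. In all, 43 of the genes that rose were listed at 0 in every 24 HAI library. Glyma.03G261800 showed the widest spread among the 12 largest rises, with 0.126, 0.0644 and 0.0209 RPKM at 24 HAI and 16.2, 67.7 and 9.82 RPKM at 36 HAI.

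Unlike these, Glyma.08G171200 ran the other way in the water controls. It was at 0.000698, 0.000320 and 0.0160 RPKM at 24 HAI and at 17.6, 17.4 and 31.0 RPKM at 36 HAI with PBZ, and at 21.0, 16.1 and 16.7 RPKM at 24 HAI and 6.68, 2.82 and 8.57e-05 RPKM at 36 HAI in control. The difference between the 2 time changes was 11.49 on the log2 scale and did not pass the test (limma interaction, Benjamini-Hochberg adjusted p = 0.056). Its libraries were thus close to 0 in one treatment and time and above 15 RPKM in another. Only uniquely mapped reads were counted, and whether the gene shares reads with a near-identical copy was not tested.

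The 12 largest falls outside the organelle-like genes had no annotation, and 7 of them were at least 2 log2 units higher in replicate 3 of the 36 HAI control, the control library of that time with a high share of organelle-like genes, than in both of its partners. The same held for 3.3% of all 1363 falls, for 0.0214% of the 4668 rises and for 0.264% of all 32897 genes. Glyma.01G143000 was at 161, 136 and 208 RPKM at 24 HAI and listed at 0 in all 3 libraries at 36 HAI, and in the 36 HAI control it was at 0, 3.48 and 105 RPKM. Glyma.01G137800 went from 12.6, 12.2 and 14.1 RPKM to 0 in every library. Glyma.12G040700 was at 239, 264 and 32.5 RPKM at 24 HAI and at 0.000207, 0.00279 and 4.43e-05 RPKM at 36 HAI, a change of -10.30 ± 0.74 (SE). Of the falls, 25 were listed at 0 in every 36 HAI library. Whether these genes share sequence with the organelle genomes was not tested.

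Among annotated genes, the largest rises were of peroxidases, lipid-transfer proteins, a lipoxygenase and a few metabolic enzymes. These annotated genes were chosen after their values were seen, as the 12 largest each way with a name in the study's tables. Only genes with a higher mean of at least 10 RPKM and no overlap between the libraries of the times could be chosen. The arginase family gene Glyma.03G028000, of an enzyme class that releases urea from arginine, was at 0.676, 2.60 and 0.732 RPKM at 24 HAI and at 98.5, 129 and 117 RPKM at 36 HAI. It rose by 6.57 ± 0.45 (SE, n = 3 per time; limma, Benjamini-Hochberg adjusted p = 0.00015). A second arginase, Glyma.01G140200, moved in the opposite direction, from 143, 153 and 133 RPKM at 24 HAI to 51.2, 49.8 and 53.0 RPKM at 36 HAI, a change of -1.47 ± 0.08 (SE; limma adjusted p = 7.8e-05). The 2 genes thus exchanged places, the first being the lower at 24 HAI and the higher at 36 HAI in each library.

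The lectin receptor kinase gene Glyma.02G156800 was at 0.573, 1.3 and 0.799 RPKM at 24 HAI and at 51.0, 98.8 and 68.6 RPKM at 36 HAI. BGLU17 (Glyma.15G271000), a beta-glucosidase, was at 13.3, 38.8 and 49.7 RPKM at 24 HAI and at 541, 564 and 518 RPKM at 36 HAI, and MIPS3 (Glyma.08G138200), a myo-inositol-1-phosphate synthase of the first step of inositol synthesis, was at 0.626, 1.47 and 1.26 RPKM at 24 HAI and at 13.9, 25.1 and 35.6 RPKM at 36 HAI. The changes of these 3 genes were 6.22, 4.19 and 4.33 on the log2 scale, and, as the choice required, none of their libraries overlapped between times. For BGLU17 replicate 1 at 24 HAI was the lowest library by a wide margin, as it was for many genes that rose.

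Among the annotated falls, the cytochrome P450 gene Glyma.07G220400 fell the furthest, from 34.1, 20.7 and 27.2 RPKM at 24 HAI to 2.03, 0.520 and 5.48 RPKM at 36 HAI, a change of -3.79 ± 0.71 (SE; limma, Benjamini-Hochberg adjusted p = 0.0044). The other 11 included the seed maturation gene PM41 (Glyma.08G160800) with 18.1, 8.22 and 4.58 RPKM and then 0.755, 0.646 and 0.863 RPKM. ATPXG2 (Glyma.10G189900), a peroxygenase of the caleosin kind found on oil bodies, fell from 42.8, 18.6 and 16.8 RPKM to 2.09, 3.37 and 3.04 RPKM. PDF2.2 (Glyma.05G198000), a small cysteine-rich defensin, went from 31.8, 7.81 and 5.63 RPKM to 1.28, 1.24 and 1.54 RPKM. In each of these 3 genes replicate 1 was the highest of the 24 HAI libraries. All libraries at 36 HAI lay below all at 24 HAI, as the choice required.

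**Figure D2:**
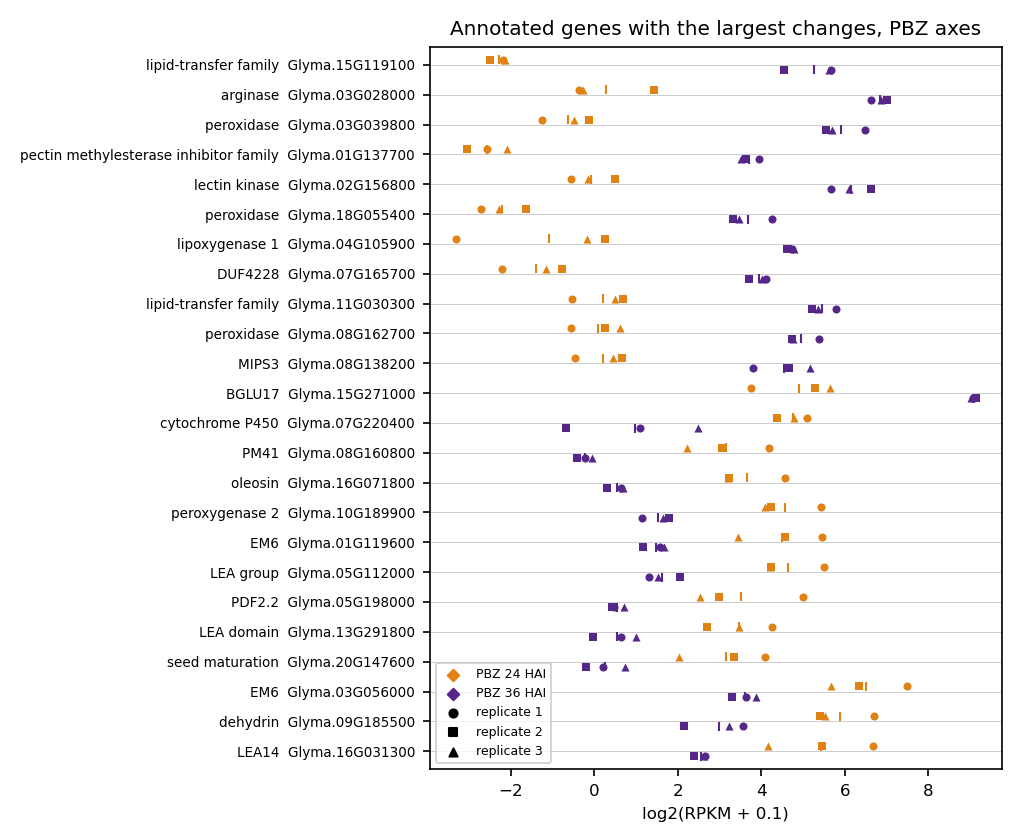
Levels of the 12 annotated genes with the largest rises and the 12 with the largest falls, as log2(RPKM + 0.1) in each PBZ library; orange marks are 24 HAI, purple marks 36 HAI, circles, squares and triangles replicates 1, 2 and 3, and vertical ticks the group means. Only genes whose libraries did not overlap between the times could be chosen, so none of the 24 genes shows overlap. Replicate 1 at 24 HAI is the highest 24 HAI library in most of the genes that fell.

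Most LEA genes, whose hydrophilic proteins protect the drying embryo, fell between 24 and 36 HAI. Of 14 LEA genes tested, 11 fell and 2 rose, with a median change of -2.82, against 4.14% falls and a median of -0.01 over all genes outside the organelle-like set. Only 1 of the 14 lay outside the genes that the study chose on the difference between PBZ and control in these libraries, so the count is not independent evidence of direction. EM6 (Glyma.03G056000), an early methionine-labelled protein of the dry embryo, was at 180.5, 81.2 and 50.5 RPKM at 24 HAI and at 12.4, 9.72 and 14.5 RPKM at 36 HAI. Its change was -2.90 ± 0.42 (SE, n = 3 per time; limma, Benjamini-Hochberg adjusted p = 0.0017), and at 12 HAI with PBZ it had been at 1999.7 ± 159 RPKM (SD, n = 3). The second EM6 copy, Glyma.01G119600, was at 43.7, 23.4 and 10.8 RPKM at 24 HAI and at 2.87, 2.15 and 3.09 RPKM at 36 HAI.

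The dehydrin Glyma.09G185500 fell from 103, 42.0 and 46.0 RPKM to 11.7, 4.36 and 9.18 RPKM, and LEA14 (Glyma.16G031300) from 102, 43.5 and 17.8 RPKM to 6.19, 5.14 and 6.11 RPKM. In both genes the highest 24 HAI value was that of replicate 1, and the 2 times did not overlap, which the choice of the annotated falls required. Both members that rose belong to the hydroxyproline-rich branch of the family, some members of which act in defence. NHL1 (Glyma.19G198900) was at 4.24, 8.95 and 11.4 RPKM at 24 HAI and at 80.4, 68.9 and 68.9 RPKM at 36 HAI, a change of 3.24 ± 0.33 (SE; limma adjusted p = 0.00046). The other, Glyma.07G087000, changed by 1.05 and lost its call without replicate 1 or replicate 2 at 24 HAI.

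Oleosins coat the oil bodies of the seed, and both genes tested fell. Glyma.16G071800 was at 23.4, 9.28 and 9.10 RPKM at 24 HAI and at 1.45, 1.13 and 1.52 RPKM at 36 HAI, and Glyma.05G004300 was at 20.8, 9.05 and 5.11 RPKM at 24 HAI and at 1.51, 1.29 and 1.38 RPKM at 36 HAI. The changes were -3.12 ± 0.36 (SE; limma, Benjamini-Hochberg adjusted p = 0.00076) and -2.74 ± 0.45 (SE; limma adjusted p = 0.0027). Within each time the 2 genes followed each other, both highest in replicate 1 at 24 HAI.

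Summed over the 14 LEA genes, the level was 395, 181 and 144 RPKM at 24 HAI and 130, 108 and 116 RPKM at 36 HAI, and for the 2 oleosins 44.2, 18.3 and 14.2 RPKM and then 2.96, 2.42 and 2.90 RPKM. The LEA sum includes NHL1, which rose and made up most of it in each 36 HAI library. It therefore understates the fall of the members that fell. No member of either list was at 0 in any library. At 12 HAI with PBZ the sums had been between 2708 and 3088 RPKM for LEA genes and between 248 and 365 RPKM for oleosins. Such messengers are stored in the axis and in the cotyledons alike, so those of the axis and those of storage tissue left on it cannot be told apart here. Replicate 1 at 24 HAI held the most of them among the 6 libraries, and their part in the other results was not tested. Without that library 11 LEA genes and both oleosins still fell, with medians of -2.22 and -2.44.

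Small heat shock proteins are chaperones that accumulate in maturing seeds and under heat. Of 15 genes tested, 10 fell (66.7%) and 0 rose, with a median of -1.67, against 4.14% falls and 14.2% rises over all genes outside the organelle-like set. All 15 came from the lists the study chose on PBZ against control, and 6 fell when replicate 1 or 2 at 24 HAI or replicate 1 or 2 at 36 HAI was left out. Glyma.14G063700 was at 79.8, 32.6 and 15.4 RPKM at 24 HAI and at 5.84, 5.25 and 9.96 RPKM at 36 HAI, a change of -2.33 ± 0.56 (SE, n = 3 per time; limma, Benjamini-Hochberg adjusted p = 0.012). Glyma.08G068800 was at 24.8, 15.5 and 12.4 RPKM at 24 HAI and at 3.27, 8.03 and 4.56 RPKM at 36 HAI, a change of -1.75, with no overlap between times. Glyma.01G106800 had the one positive difference among the 15 genes, with 22.9, 15.2 and 16.9 RPKM and then 30.2, 44.5 and 26.9 RPKM, a difference of 0.87 that missed the limit of 1 and passed it without replicate 1 at 24 HAI or without replicate 3 at 36 HAI. The sum over the 15 genes was 280.3, 136 and 91.6 RPKM at 24 HAI and 64.6, 95.9 and 76.6 RPKM at 36 HAI, so that replicates 2 and 3 at 24 HAI lay close to the 36 HAI range.

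Of 40 genes from the cell wall list of the study, 33 rose (82.5%), 2 fell (5%) and 5 were not called, with a median of 2.37, against 14.2% rises and 4.14% falls over all genes outside the organelle-like set, and 31 rose and 1 fell without replicate 1 at 24 HAI. The list was chosen on PBZ against control in these libraries and is not independent evidence of direction. The 2 members that fell, Glyma.11G105900 and Glyma.12G030800, are annotated as the glycine-rich cold-shock protein GRP2B, an RNA-binding protein rather than a wall component. Their changes were -1.21 and -1.07, and the second lost its call without replicate 1 at 24 HAI.

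Class III peroxidases, secreted enzymes that cross-link or loosen the wall with hydrogen peroxide, were among the strongest rises. Of 13 tested, 10 rose (76.9%) and 0 fell, with a median of 2.72, and 10 rose without replicate 1 at 24 HAI. Over all genes outside the organelle-like set 14.2% rose and 4.14% fell. Of the 4 that the study did not choose on PBZ, 2 rose. Glyma.03G039800 was at 0.319, 0.812 and 0.613 RPKM at 24 HAI and at 89.5, 46.6 and 51.4 RPKM at 36 HAI, a change of 6.53 ± 0.34 (SE, n = 3 per time; limma, Benjamini-Hochberg adjusted p = 8.1e-05). Glyma.18G055400 was at 0.0511, 0.223 and 0.104 RPKM at 24 HAI and at 18.9, 9.91 and 11 RPKM at 36 HAI, and Glyma.08G162700 was at 0.574, 1.09 and 1.43 RPKM at 24 HAI and at 41.6, 26.6 and 27.0 RPKM at 36 HAI. In all 3 genes replicate 1 at 24 HAI was the lowest library and replicate 1 at 36 HAI the highest. Glyma.01G171100, one of the 4 that the study did not choose on PBZ, was at 0.163, 0.360 and 0.211 RPKM at 24 HAI and at 6.86, 5.82 and 5.89 RPKM at 36 HAI, a change of 4.23 ± 0.25 (SE; limma adjusted p = 0.00011). Summed over the 13 genes, the level was 23.9, 29.0 and 26.9 RPKM at 24 HAI and 229, 149 and 168 RPKM at 36 HAI.

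Enzymes of phenylpropanoid and lignin synthesis supply the phenolic units that peroxidases and laccases polymerise. Of 14 tested, 12 rose (85.7%) and 0 fell, with a median of 2.05, where 14.2% of all genes outside the organelle-like set rose. Of the 8 not chosen on PBZ 7 rose, with a median of 2.24. ELI3-1 (Glyma.01G020900), an alcohol dehydrogenase of the cinnamyl kind, was at 6.74, 20.8 and 18.8 RPKM at 24 HAI and at 123, 115 and 117 RPKM at 36 HAI. Its change was 3.09 ± 0.39 (SE, n = 3 per time; limma, Benjamini-Hochberg adjusted p = 0.001). The chalcone isomerase family gene Glyma.01G166300, of the flavonoid branch, was at 0.197, 0.816 and 0.465 RPKM at 24 HAI and at 4.15, 5.83 and 3.25 RPKM at 36 HAI, and the laccase Glyma.01G112600 was at 0.605, 1.01 and 1.04 RPKM at 24 HAI and at 4.51, 3.62 and 3.67 RPKM at 36 HAI. Without replicate 1 at 24 HAI the count stayed at 12 rises, with a median of 1.75.

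The share of rises over all genes outside the organelle-like set was 14.2%, and the next lists are small. Expansins, which loosen the contacts between cellulose and its matrix, had 4 rises among 5 genes, with a median of 1.38. Without replicate 1 at 24 HAI 3 rose. Of the 5 genes, 2 were not chosen on PBZ, and 1 of these rose. Of the xyloglucan endotransglucosylases, which cut and rejoin xyloglucan, 2 of 3 rose: XTH26 (Glyma.01G146000) was listed at 0 in the 24 HAI libraries and reached 11.9, 5.43 and 7.29 RPKM. XTH32 (Glyma.03G184500), with 24.7, 36.3 and 31.9 RPKM at 24 HAI and 53.5, 61.9 and 54.7 RPKM at 36 HAI, missed the limit with a difference of 0.89. Pectin-modifying enzymes had 6 rises and 0 falls among 10 genes, with a median of 2.01. Of these, 6 were not chosen by the study on PBZ, and 2 of them rose, with a median of 0.80. The pectin methylesterase inhibitor family gene Glyma.01G137700 was at 0.0671, 0.0211 and 0.135 RPKM at 24 HAI and at 15.3, 12.2 and 11.3 RPKM at 36 HAI. Fasciclin-like and other arabinogalactan proteins, which sit at the outer face of the plasma membrane, had 3 rises among 7 genes, and 1 rise among the 3 of them that were not chosen on PBZ. FLA9 (Glyma.12G207600) was at 11.1, 18 and 21.5 RPKM at 24 HAI and at 45.1, 44.2 and 43.4 RPKM at 36 HAI, a change of 1.44 ± 0.22 (SE; limma, Benjamini-Hochberg adjusted p = 0.0021).

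**Figure D3:**
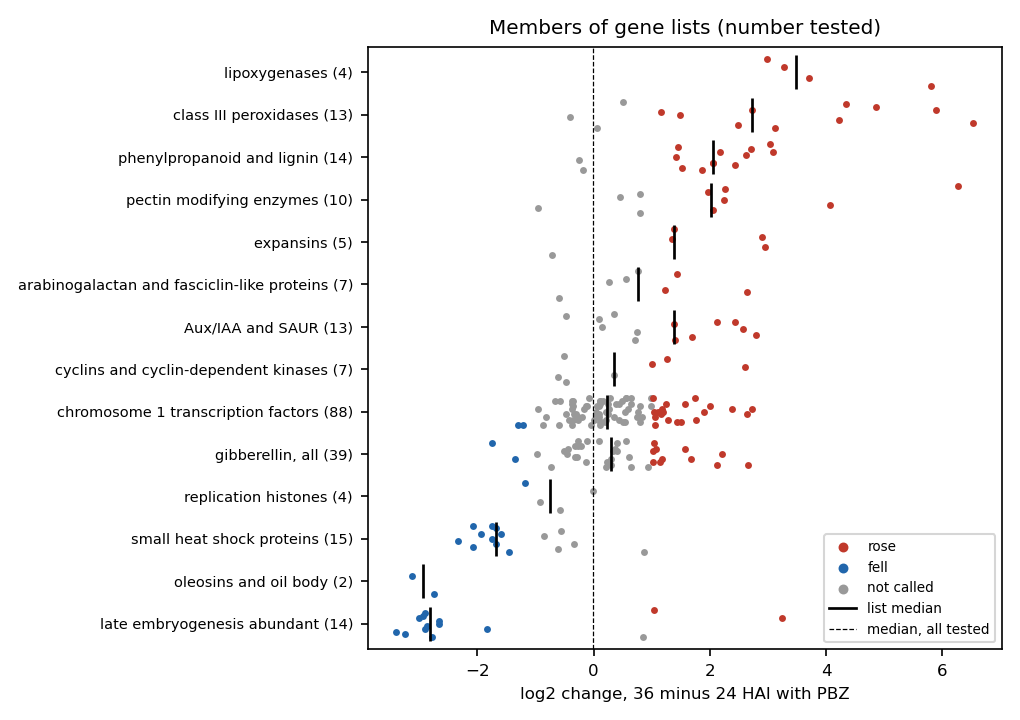
Change from 24 to 36 HAI with PBZ on the log2(RPKM + 0.1) scale for each tested member of 14 gene lists, with the number tested in brackets. Red points rose, blue points fell, grey points were not called, black bars are list medians and the dashed line is the median of all tested genes. Lipoxygenases (median 3.49) and peroxidases (2.72) lie furthest to the right, and oleosins (-2.93) and LEA genes (-2.82) furthest to the left.

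All 4 lipoxygenases tested rose, with a median of 3.49, where 14.2% of all genes outside the organelle-like set rose. These enzymes add oxygen to linoleic and linolenic acid, and plant lipoxygenases of some classes start the jasmonate pathway. The 4 genes, all annotated as LOX1, were chosen by the study on PBZ against control. Glyma.13G347800, the most abundant, was at 16.2, 59.6 and 58.4 RPKM at 24 HAI and at 272, 382 and 270.1 RPKM at 36 HAI, a change of 2.98 ± 0.48 (SE, n = 3 per time; limma, Benjamini-Hochberg adjusted p = 0.0025). Glyma.04G105900 was at 0, 1.08 and 0.781 RPKM at 24 HAI and at 26.5, 24.4 and 27.6 RPKM at 36 HAI. For both genes replicate 1 at 24 HAI was the lowest library, and the sum over the 4 was 17.8, 65.6 and 63.5 RPKM at 24 HAI and 335, 452 and 332 RPKM at 36 HAI. Without that library all 4 still rose, with a median of 3.02. Whether the LOX1 copies shared reads was not tested.

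The list matched by the words for seed storage proteins held no globulin. Its 13 tested members were of the bifunctional inhibitor/lipid-transfer protein family, small secreted proteins of which some carry lipids to the surface layers and others are seed albumins. Of these, 9 rose (69.2%) and 1 fell (7.69%), with a median of 1.65, against 14.2% and 4.14% of all genes outside the organelle-like set. The study had chosen 12 of the 13 on PBZ against control. Glyma.15G119100 was at 0.120, 0.0779 and 0.126 RPKM at 24 HAI and at 50.4, 23.2 and 48.8 RPKM at 36 HAI, the largest rise among the annotated genes with a mean of at least 10 RPKM at 7.54 ± 0.31 (SE, n = 3 per time; limma, Benjamini-Hochberg adjusted p = 6.1e-05). Glyma.05G057500 was at 22.3, 65.7 and 48.6 RPKM at 24 HAI and at 503, 332 and 428 RPKM at 36 HAI, and Glyma.17G140200 was at 66.2, 85.5 and 85.6 RPKM at 24 HAI and at 379, 334 and 367 RPKM at 36 HAI. The one fall, of Glyma.18G033200, was -2.11 and was lost when any 24 HAI library was left out.

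Of 39 gibberellin genes tested, 11 rose (28.2%) and 2 fell (5.13%), with a median change of 0.30. Over all genes outside the organelle-like set 14.2% rose and 4.14% fell, so the share of falls lay near that of all genes. Without replicate 1 at 24 HAI 7 rose (17.9%) and 2 fell, a share of rises that also lay nearer to that of all genes. The list took expressed genes of the pathway, but some of them had been called by the study on PBZ against control. These were the 2 NPF3.1 transporter genes, higher with PBZ at 36 HAI, and a DELLA gene, lower with PBZ at 24 HAI. The transporters gave 1 of the 11 rises and 1 of the 2 falls. In the CPS, KO, KAO, GA20ox, GA3ox and DELLA families, the member with the highest mean at 24 HAI was not called. The calls in these families lay in less abundant members. The transporters went the other way, since the more abundant of them at 24 HAI was the one that rose. Among the GA 2-oxidases with levels given below, the highest at 24 HAI was also called as a rise.

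For the early steps, CPS and KS make ent-kaurene and KO, the target of PBZ, oxidises it. The abundant KO gene, Glyma.13G371400, was at 17.9, 20.8 and 17.8 RPKM at 24 HAI and at 25.4, 20.7 and 25.3 RPKM at 36 HAI, a difference of 0.33 that was not called. The second KO gene, Glyma.15G002200, rose from 0.657, 1.17 and 1.13 RPKM to 2.00, 2.26 and 2.46 RPKM, a change of 1.14 that lost its call without replicate 1 at 24 HAI. Neither KS gene was called, with differences of 0.30 for Glyma.08G163900 and 0.94 for Glyma.15G263300. Of the 2 CPS genes, Glyma.03G154700 rose by 1.02, just past the limit, a call lost without replicate 1 at 24 HAI, without replicate 1 or 2 at 36 HAI and under quantile or median-ratio scaling, and Glyma.19G157000 differed by -0.11.

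KAO carries ent-kaurenoic acid to the first gibberellin, and its 2 genes diverged. KAO2 (Glyma.15G135200) was at 5.47, 8.89 and 8.96 RPKM at 24 HAI and at 47.8, 46.1 and 52.0 RPKM at 36 HAI, a change of 2.66 ± 0.19 (SE, n = 3 per time; limma, Benjamini-Hochberg adjusted p = 0.00016). KAO1 (Glyma.09G029400) was at 26.2, 26.7 and 25.7 RPKM at 24 HAI and at 21.8, 21.8 and 21.9 RPKM at 36 HAI, a difference of -0.26 that was under the limit of 1. KAO1 was thus the higher of the pair at 24 HAI and KAO2 at 36 HAI in every library.

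The last steps are run by GA 20-oxidases and GA 3-oxidases, which yield bioactive gibberellin. GA20OX2 (Glyma.10G241100) was at 0.522, 1.07 and 0.898 RPKM at 24 HAI and at 4.75, 3.08 and 3.77 RPKM at 36 HAI, a change of 2.12 ± 0.28 (SE; limma, Benjamini-Hochberg adjusted p = 0.0013), while the more abundant copy Glyma.09G149200 was at 14.3, 14.8 and 11.6 RPKM at 24 HAI and at 8.68, 12.8 and 7.6 RPKM at 36 HAI with overlapping libraries. The third, GA20OX3 (Glyma.06G155000), differed by -0.32 and was not called. Of the 2 GA3OX1 genes, Glyma.15G012100 fell from 24.0, 19.9 and 16.5 RPKM to 7.42, 5.64 and 4.73 RPKM, a change of -1.75 ± 0.19 (SE; limma adjusted p = 0.00067). Its partner Glyma.13G361700 was at 63.3, 64.9 and 59.7 RPKM at 24 HAI and at 70.4, 72.0 and 58.6 RPKM at 36 HAI, and its libraries overlapped between times.

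GA 2-oxidases inactivate gibberellin, and 3 of 8 genes tested rose (37.5%), against 14.2% of all genes outside the organelle-like set. GA2OX1 (Glyma.13G259400) was at 5.54, 11.7 and 13 RPKM at 24 HAI and at 29.3, 34.6 and 22.6 RPKM at 36 HAI, a change of 1.58 ± 0.32 (SE; limma, Benjamini-Hochberg adjusted p = 0.0062). Its neighbour in name, Glyma.13G259500, and GA2OX4 (Glyma.05G130600) rose by 1.67 and 2.2 from group means under 1 RPKM, and both lost their call with a pseudocount of 1. The GA2OX2 gene Glyma.15G093900, with 7.73, 3.42 and 6.14 RPKM and then 2.53, 3.47 and 2.31 RPKM, had a difference of -0.98 just short of the limit and overlapping libraries. The other 4 were not called, with differences between -0.74 for Glyma.13G218200 and 0.65 for Glyma.07G236100.

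None of the 5 genes tested for GID1, the receptor of gibberellin, was called, with differences between -0.13 for Glyma.20G230600 and 0.57 for Glyma.03G148300. DELLA proteins, the repressors that GID1 marks for breakdown, had 3 rises among 11 genes (27.3%), and 1 (9.09%) without replicate 1 at either time. The share of rises over all genes outside the organelle-like set was 14.2%. RGL2 (Glyma.18G040000) was at 10.4, 12.9 and 12.2 RPKM at 24 HAI and at 31.3, 23.1 and 27.1 RPKM at 36 HAI, a change of 1.18 ± 0.13 (SE, n = 3 per time; limma, Benjamini-Hochberg adjusted p = 0.00072). The most abundant DELLA gene, Glyma.11G216500, was at 35.5, 45.2 and 43.8 RPKM at 24 HAI and at 67.8, 56.3 and 65.0 RPKM at 36 HAI, a difference of 0.60 that was not called although its libraries did not overlap. The other 2 rises, of Glyma.04G150500 (1.02) and Glyma.05G045300 (1.03), lay at the limit and were lost without replicate 1 at 24 HAI. The 2 NPF3.1 transporter genes, whose Arabidopsis relative carries gibberellin, went in opposite directions. Glyma.03G122500 was at 34.9, 29.7 and 32.3 RPKM at 24 HAI and at 68.8, 57.2 and 80.7 RPKM at 36 HAI, and Glyma.03G123000 was at 26.1, 20.2 and 18 RPKM at 24 HAI and at 9.72, 5.41 and 10.5 RPKM at 36 HAI. The changes were 1.08 ± 0.13 (SE; limma adjusted p = 0.00094), lost without replicate 3 at 36 HAI, and -1.36 ± 0.26 (SE; limma adjusted p = 0.0049).

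**Figure D4:**
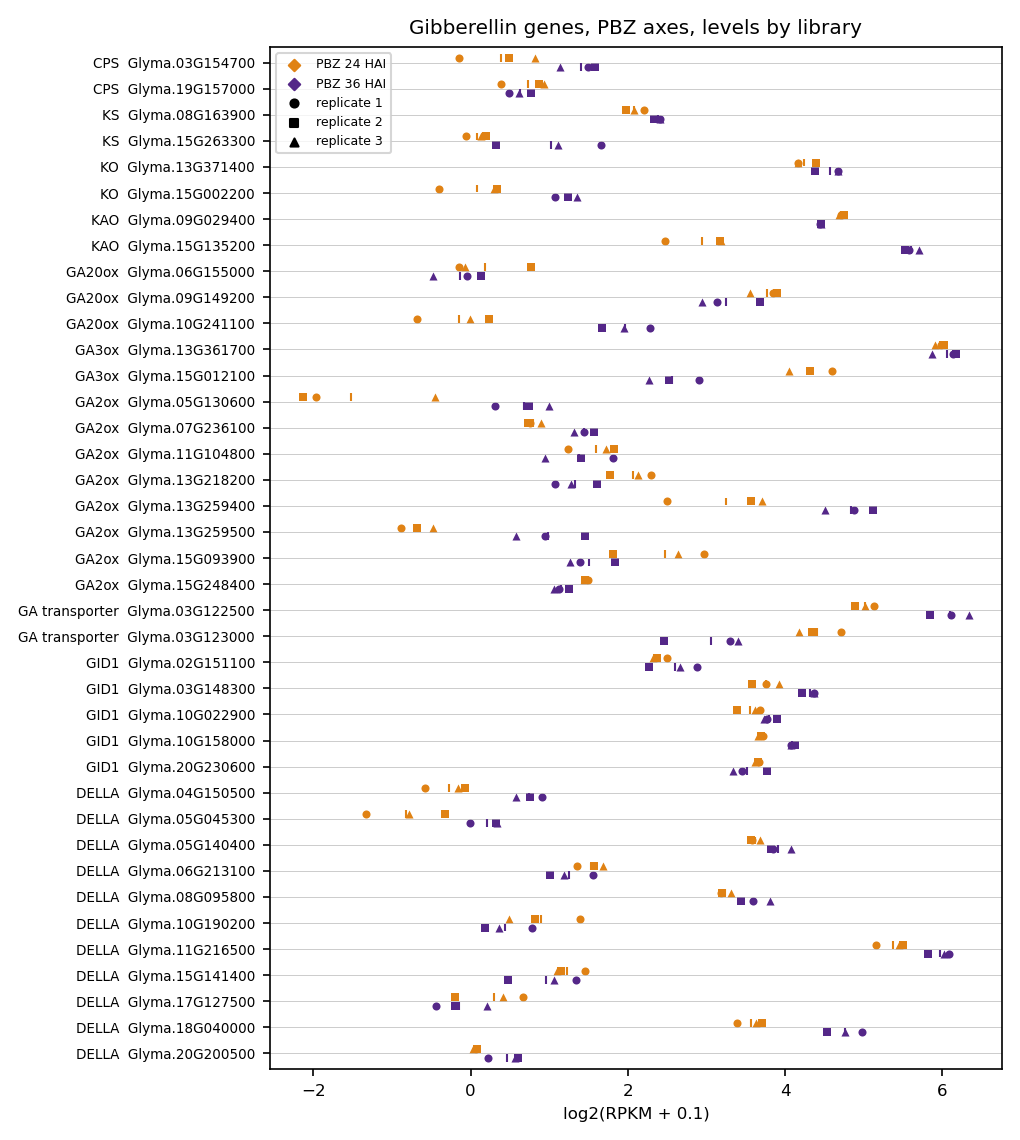
Levels of the 39 gibberellin genes as log2(RPKM + 0.1) in each PBZ library, ordered by step from CPS to the DELLA genes; orange marks are 24 HAI, purple marks 36 HAI, circles, squares and triangles replicates 1, 2 and 3, and vertical ticks the group means. The times are far apart in KAO Glyma.15G135200 and GA20ox Glyma.10G241100, which rose, and in GA3ox Glyma.15G012100, which fell, whereas the GID1 genes lie close together.

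Among other hormones, 20 of 36 genes rose (55.6%) and 2 fell (5.56%), with a median of 1.33, against 14.2% and 4.14% over all genes outside the organelle-like set, and 18 rose and 2 fell without replicate 1 at 24 HAI. These genes were chosen by the study on PBZ against control. Auxin genes had 7 rises and 0 falls among 12. IAA14 represses the auxin response in Arabidopsis roots, and its soybean copies Glyma.03G158700 and Glyma.19G161100 were at 2.23, 2.70 and 2.27 RPKM at 24 HAI and at 16.6, 20.0 and 15.6 RPKM at 36 HAI and at 4.74, 6.07 and 6.01 RPKM at 24 HAI and at 27.1, 24.7 and 22.4 RPKM at 36 HAI, respectively. Their changes were 2.80 ± 0.13 (SE, n = 3 per time; limma, Benjamini-Hochberg adjusted p = 6.8e-05) and 2.13 ± 0.13 (SE; limma adjusted p = 0.00011). IAA9 (Glyma.01G019400), which the study did not choose on PBZ, was at 20.5, 26.2 and 25.2 RPKM at 24 HAI and at 68.5, 59.1 and 62.7 RPKM at 36 HAI, a change of 1.41. TAR2 (Glyma.05G040400), an aminotransferase of auxin synthesis, rose by 1.39, a call lost with a pseudocount of 1.

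In the abscisic acid list, 5 of 6 genes rose and 1 fell, and 4 rose without replicate 1 at 24 HAI. Over all genes outside the organelle-like set 14.2% rose and 4.14% fell. NCED3 (Glyma.08G176300), which makes the cleavage step of abscisic acid synthesis, was at 1.05, 2.45 and 2.94 RPKM at 24 HAI and at 6.76, 7.01 and 7.33 RPKM at 36 HAI, a change of 1.78 ± 0.34 (SE; limma, Benjamini-Hochberg adjusted p = 0.0047). The transcription factor ABF1 (Glyma.02G131700) and the phosphatase HAB1 (Glyma.09G066500), which act in the response, rose by 2.22 and 1.32. The receptor gene PYL5 (Glyma.11G233300) fell from 4.15, 2.46 and 2.46 RPKM to 1.57, 0.732 and 0.701 RPKM, a change of -1.55. Its libraries did not overlap between times.

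Of the jasmonate repressors, JAZ12 (Glyma.17G043700) and JAZ1 (Glyma.11G038600) both rose, by 3.15 and 2.59. Cytokinin genes had 3 rises and 0 falls among 5, with 2 rises without replicate 1 at 24 HAI or replicate 3 at 36 HAI, and the response regulator ARR3 (Glyma.08G292400), a negative regulator of the cytokinin response, was at 1.48, 2.29 and 1.62 RPKM at 24 HAI and at 9.73, 8.12 and 8.38 RPKM at 36 HAI. The ethylene synthesis gene ACS8 (Glyma.17G158100), the only one tested, rose by 1.56 from values under 0.5 RPKM and lost its call with a pseudocount of 1. Brassinosteroid genes had 2 rises (20%) and 1 fall (10%) among 10, with a median of 0.11, against 14.2% and 4.14% of all genes. DWF4 (Glyma.11G067700) and CPD (Glyma.14G059900), cytochromes P450 of consecutive parts of brassinosteroid synthesis, moved in opposite directions. DWF4 was at 7.20, 11.1 and 9.05 RPKM at 24 HAI and at 18.6, 31.8 and 19.9 RPKM at 36 HAI, a change of 1.33 ± 0.23 (SE; limma, Benjamini-Hochberg adjusted p = 0.0035). CPD was at 35.8, 31.5 and 25.6 RPKM at 24 HAI and at 10.4, 12.5 and 13.4 RPKM at 36 HAI, a change of -1.34 ± 0.15 (SE; limma adjusted p = 0.00062).

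Transcription factor genes of the study's list had 24 rises (68.6%) and 4 falls (11.4%) among 35, with a median of 2.16, against 14.2% and 4.14% over all genes outside the organelle-like set, and 22 rises and 3 falls without replicate 1 at 24 HAI. This list too was chosen on PBZ against control. MYB61, known from Arabidopsis as a regulator of lignification and seed coat mucilage, had 2 copies with large rises: Glyma.10G142200 was at 1.77, 2.34 and 2.68 RPKM at 24 HAI and at 16, 15.5 and 15.2 RPKM at 36 HAI, and Glyma.20G090700 was at 0.356, 0.622 and 0.480 RPKM at 24 HAI and at 8.26, 4.99 and 7.21 RPKM at 36 HAI. The homeobox genes annotated as ATHB7, Glyma.16G021000 and Glyma.07G052100, which respond to abscisic acid and drought in Arabidopsis, rose by 4.12 and 3.65. The bHLH gene Glyma.20G152900 rose by 4.15, with 0, 0.311 and 0.194 RPKM at 24 HAI and 5.21, 4.05 and 2.94 RPKM at 36 HAI.

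Of the 4 transcription factor genes that fell, 3 encode S1FA-like proteins, small DNA-binding proteins. Glyma.03G179000 was at 66.0, 52.8 and 40.5 RPKM at 24 HAI and at 21.3, 17.3 and 14.4 RPKM at 36 HAI, a change of -1.57 ± 0.20 (SE; limma, Benjamini-Hochberg adjusted p = 0.0011). Glyma.13G138200 and Glyma.19G179700 fell by 1.18 and 1.18 on the log2 scale. In control Glyma.03G179000 was at 27.8, 21.0 and 27.0 RPKM and then at 20.7, 19.8 and 40.9 RPKM, and the difference between the time changes, -1.61, did not pass the test (limma interaction, Benjamini-Hochberg adjusted p = 0.078). The value of 40.9 RPKM is that of the control library with a high share of organelle-like genes, and without it the difference was -1.27 (limma adjusted p = 0.091). The fourth, LOL2 (Glyma.07G196200), fell by 1.22 and lost its call without replicate 1 at 24 HAI.

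The study's list of all expressed genes was at hand for chromosome 1 only, so genes of this chromosome were listed irrespective of PBZ, though some have no name. Those that the study chose on PBZ against control were left out here, so the list still depends in part on the treatment. Of 1151 such genes tested, 163 rose (14.2%) and 42 fell (3.65%), with a median of -0.01, close to the 14.2% and 4.14% of all genes outside the organelle-like set. Without replicate 1 at 24 HAI 143 rose and 34 fell. Among the 88 transcription factor genes of this kind, 20 rose and 2 fell, with a median of 0.23, and 15 rose and 2 fell without that library.

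Both genes of the nuclear light harvesting and Calvin cycle list rose, and both lie on chromosome 1; the other genes given beside them and in the next paragraphs on chromosome 1 were picked after their values were seen. CP29.1 (Glyma.01G115900), an antenna protein of photosystem II, was at 11.6, 23.9 and 17.3 RPKM at 24 HAI and at 146, 129 and 142 RPKM at 36 HAI, a change of 3.04 ± 0.24 (SE, n = 3 per time; limma, Benjamini-Hochberg adjusted p = 0.00021). The oxygen-evolving subunit PsbO-2 (Glyma.01G180800) was at 9.18, 18.3 and 15.2 RPKM at 24 HAI and at 77.3, 67.3 and 80.1 RPKM at 36 HAI, and the Calvin cycle enzyme phosphoribulokinase (Glyma.01G010200) was at 0.941, 2.72 and 3.23 RPKM at 24 HAI and at 31.0, 30.2 and 30.2 RPKM at 36 HAI. PsbQ-like 2 (Glyma.01G050900) rose by 2.12. The photorespiratory genes for alanine:glyoxylate aminotransferase 3 (Glyma.01G129400) and the H protein of glycine decarboxylase (Glyma.01G199700) rose by 1.97 and 1.91. The libraries of the 2 times did not overlap in any of these 6 genes, most of which were picked after their values were seen. The same held for 64.3% of all tested genes.

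Among the other rises on chromosome 1, NADP-malic enzyme 4 (Glyma.01G008500), which releases CO2 from malate, was at 98.7, 138 and 154 RPKM at 24 HAI and at 384, 342 and 391 RPKM at 36 HAI, and lipid transfer protein 1 (Glyma.01G132500) was at 72.7, 107 and 111 RPKM at 24 HAI and at 374, 375 and 452 RPKM at 36 HAI. Their changes were 1.54 ± 0.16 (SE; limma, Benjamini-Hochberg adjusted p = 0.00058) and 2.07 ± 0.17 (SE; limma adjusted p = 0.00026). The mitotic cyclin B2;3 (Glyma.01G159700) was at 0.735, 1.88 and 1.29 RPKM at 24 HAI and at 9.44, 8.06 and 6.62 RPKM at 36 HAI, a change of 2.61. WRKY33 (Glyma.01G128100), a regulator of defence, and the bHLH gene Glyma.01G198100 rose by 2.38 and 2.73.

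Falls on chromosome 1 included growth-regulating factor 2 (Glyma.01G148600), a transcription factor of growing organs, with 23.8, 17.6 and 18 RPKM at 24 HAI and 7.96, 7.53 and 8.30 RPKM at 36 HAI. Its change was -1.3 ± 0.13 (SE; limma, Benjamini-Hochberg adjusted p = 0.00044). The methyltransferase gene Glyma.01G004200 fell from 95.3, 59.2 and 63.4 RPKM to 15.9, 14 and 17.1 RPKM, and gamma-glutamyl transpeptidase 4 (Glyma.01G005200), an enzyme of glutathione breakdown, from 17.3, 16.4 and 16.2 RPKM to 5.10, 4.24 and 5.18 RPKM. In these 3 genes every 36 HAI library was below every 24 HAI library, and the spread within a time was small beside the change.

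In absolute terms, the largest gains and losses were of a few very abundant transcripts, mostly without annotation. They were chosen after the values were seen, as the 6 largest each way in mean RPKM. Glyma.08G200100 was at 66.4, 275 and 228 RPKM at 24 HAI and at 3728, 3604 and 3783 RPKM at 36 HAI, a change of 4.52 ± 0.49 (SE, n = 3 per time; limma, Benjamini-Hochberg adjusted p = 0.00061). Glyma.10G214500 was at 709, 1136 and 1058 RPKM at 24 HAI and at 3563, 4459 and 4646 RPKM at 36 HAI. For both genes replicate 1 was the lowest library at 24 HAI, and the lowest 36 HAI library was still higher than any at 24 HAI.

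Glyma.18G259400 had the largest loss and was at 2821, 2421 and 2258 RPKM at 24 HAI and at 988, 803 and 875 RPKM at 36 HAI, a change of -1.49. Glyma.17G027400 was at 1505, 626 and 632 RPKM at 24 HAI and at 152, 179.6 and 186 RPKM at 36 HAI, and at 12 HAI with PBZ it had been at 7929 ± 1422 RPKM (SD, n = 3). The only annotated gene among the 6 losses was that of the ribosomal protein L38e, Glyma.13G221500, at 1148, 1005 and 903 RPKM at 24 HAI and at 453, 487 and 388 RPKM at 36 HAI, a change of -1.20. Among the gains, Glyma.10G297000 lost its call without replicate 1 at 24 HAI.

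The genes called organelle-like were kept apart throughout. They were 86 genes that the study's tables match to organelle proteins or that have an Arabidopsis best hit on an organelle genome, and 92 genes that split the replicates of the 12 and 36 HAI controls. The choice of the 92 used none of the 6 PBZ libraries compared, but most of the 86 had been chosen by the study on PBZ against control. Of 80 genes taken as organelle-like by annotation, 7 lay outside that choice. The fall of the matched genes and of their share is thus not independent evidence of direction. The 2 sets shared 50 genes and together held 128, of which 42 have no organelle match and were taken for the split alone. No sequences were compared. These are nuclear gene models, and because only uniquely mapped reads were counted, RNA from an organelle and from a nuclear copy cannot be told apart.

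With PBZ, the organelle-like genes held 4.78, 4.54 and 7.56% of the summed RPKM at 24 HAI and 0.269, 0.420 and 0.453% at 36 HAI. The means were 5.62 ± 1.68% and 0.381 ± 0.0980% (SD, n = 3 each), a difference of -5.24 percentage points (two-sided p = 0.1 in an exact permutation test, the lowest possible with 3 samples a side). Leaving out 1 library at a time gave differences between -5.79 and -4.28 points. Most of this share lay in genes without an organelle match: the 86 matched genes alone held 0.316, 0.367 and 0.570% at 24 HAI and 0.0390, 0.0528 and 0.0626% at 36 HAI, a difference of -0.366 points (two-sided exact permutation p = 0.1). In the other libraries the share varied within groups as well as between them: it was between 0.259 and 0.331% in the 3 controls at 24 HAI, 0.197, 0.238 and 5.16% in those at 36 HAI, 11.6, 0.730 and 7.67% in those at 12 HAI, and 7.50, 6.52 and 3.89% with PBZ at 12 HAI. Of the organelle-like genes, 92 were chosen because they split the replicates of the 12 and 36 HAI controls. The spread within those groups was thus in part built into the share. For the 86 matched genes, not chosen on that split, the share was 0.565, 0.103 and 0.410% in the 12 HAI controls. In the 36 HAI controls it was 0.0376, 0.0427 and 0.388%.

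**Figure D5:**
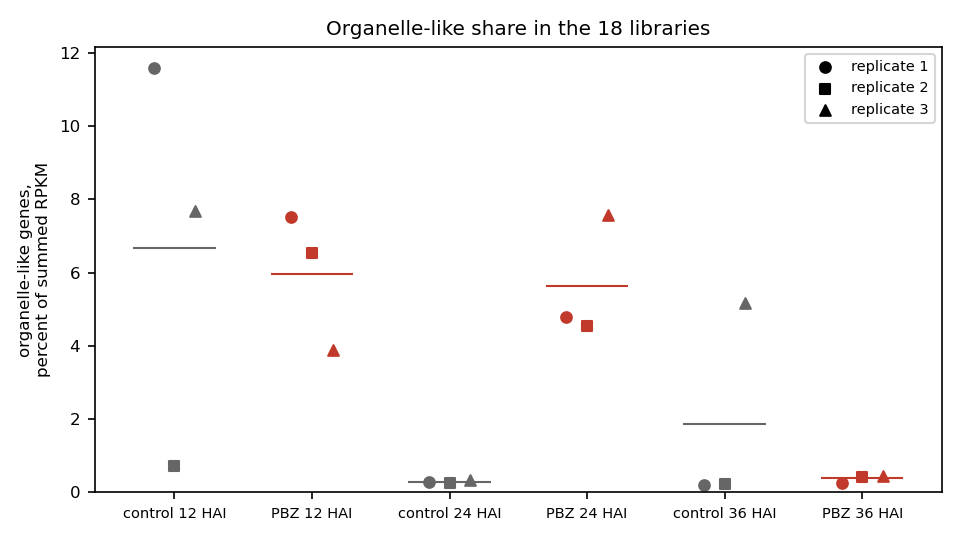
Share of the summed RPKM held by the 128 organelle-like genes, in percent, in each of the 18 libraries; grey marks are control, red marks PBZ, circles, squares and triangles replicates 1, 2 and 3, and horizontal lines the group means. The 24 HAI PBZ libraries lie between 4.54 and 7.56% and the 36 HAI PBZ libraries under 0.5%. Replicates of the control at 12 and 36 HAI lie far apart, a split on which part of the genes were chosen.

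Of 123 organelle-like genes tested, 111 fell and 0 rose, with a median change of -3.39, and of the 84 tested genes with an organelle match 76 fell, with a median of -3.24. Since the share of the whole set differed between the times in the same direction, these calls are a description only. Of 62 genes with a chloroplast match 54 fell, with a median of -2.99, and of 22 with a mitochondrial match all 22 fell, with a median of -3.75. NADH dehydrogenase subunits 6 and 5B are parts of mitochondrial complex I: the gene models Glyma.08G301000 and Glyma.17G185800 were at 28.6, 33.3 and 48.4 RPKM at 24 HAI and at 1.62, 2.09 and 2.37 RPKM at 36 HAI and at 57.5, 59.2 and 97.5 RPKM at 24 HAI and at 2.89, 5.44 and 4.99 RPKM at 36 HAI, respectively. Their changes were -4.09 ± 0.22 (SE, n = 3 per time; limma, Benjamini-Hochberg adjusted p = 8.1e-05) and -3.98 ± 0.29 (SE; limma adjusted p = 0.00017).

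For the chloroplast, Glyma.08G050600, matched to the photosystem II protein PsbG, was at 15.9, 15.0 and 26.6 RPKM at 24 HAI and at 1.14, 0 and 1.5 RPKM at 36 HAI, and Glyma.14G132100, matched to maturase K, the plastid splicing factor, was at 4.68, 4.91 and 8.13 RPKM at 24 HAI and at 0, 0 and 0.494 RPKM at 36 HAI. Both fell by about the same amount on the log2 scale, by 5.0 and 5.01. The fall of NADH dehydrogenase 2A, Glyma.01G136800, from 19.6, 39.9 and 72.5 RPKM to 2.81, 0 and 7.36 RPKM, lost its call without replicate 2 or replicate 3 at 24 HAI. Leaving the organelle-like genes out and rescaling the rest gave 4314 rises and 1633 falls, with a shift of -0.0757 in the median change.

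The water controls, sequenced in separate libraries, moved largely the same way over these 12 hours. Of the 4668 genes that rose with PBZ, 99.2% had a change above 0 in control and 68.1% a change of at least 1, against 43.1% and 11.2% of all 32897 genes outside the organelle-like set. Of the 1363 that fell, 89.1% had a change below 0 in control and 51.5% of at most -1, against 56.8% and 3.45% of all genes. The median change of the genes that rose was 1.72 with PBZ and 1.32 in control, and of those that fell -1.42 and -1.03. The genes were chosen on the PBZ values, so the larger size with PBZ follows in part from the choice and is no comparison of the treatments.

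The difference between the time changes was tested over the 12 libraries of 24 and 36 HAI, in 33541 genes. The change from 24 to 36 HAI was called more positive with PBZ than in control in 1 gene (0.00298%) and more negative in 2 (0.00596%), in limma with Benjamini-Hochberg adjustment, while 7584 genes had an unadjusted p of at most 0.05. Without replicate 3 of the 36 HAI control, which has a high share of organelle-like genes, the counts were 8 and 61, and without any 1 of the 24 HAI replicates with PBZ they were 0 and 0, with 6121 to 7892 genes at an unadjusted p of at most 0.05. With sample weights the counts were 42 and 80. So few adjusted calls therefore do not show that the time changes were the same in both treatments. The gene with the more positive change, Glyma.01G229300, and both with the more negative change, Glyma.10G034800 and Glyma.12G232200, are described with the results for a closer look. The ribosomal protein L38e gene Glyma.13G221500 fell with PBZ, while in control it was at 383, 434 and 524 RPKM and then at 417, 519 and 926 RPKM. Its difference of -1.60 did not pass the test (limma interaction, Benjamini-Hochberg adjusted p = 0.074). Without replicate 3 of the 36 HAI control, the library with 926 RPKM, the difference was -1.27 (limma adjusted p = 0.053). For none of the gibberellin genes did the difference between the time changes pass the test, and that of KAO2 (Glyma.15G135200) was 0.71 ± 0.25 (SE; limma adjusted p = 0.13).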

How the data were processed

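RNA of soybean embryonic axes was measured in 18 libraries, of which the 6 with PBZ at 24 and 36 HAI were compared and the 6 controls of these times entered the test of the difference between time changes. According to the study's methods and the submitters' processing notes, the authors removed ribosomal reads, aligned single-end reads to the soybean genome Wm82.a2.v1 with Novoalign 3.06.05, kept uniquely mapped reads and computed RPKM with Cufflinks 2.1.1, with bias correction. The authors deposited these RPKM values for 56044 genes, and 0 columns were left unmatched to a sample. The kit named in the labels does not mark the strand, so reads of overlapping antisense genes cannot be told apart. The study's methods still give Cufflinks a setting for stranded libraries (fr-firststrand). Its effect on the values of such genes was not tested. Genes with near-identical copies are uncertain.

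Values were taken as log2(RPKM + 0.1). Genes whose mean reached 1 RPKM in either group were fitted with limma 3.58.1 in R 4.3.3 (empirical Bayes with a trend in the variance), with the replicate number left out of the fit, and p-values were adjusted over all tested genes after Benjamini and Hochberg. A call needed an adjusted p no higher than 0.05 and a log2 change of 1 or more. The time change with PBZ minus that in control was an interaction term over 12 libraries, in genes with a mean of at least 1 RPKM in any of the 4 groups. Lists are described by counts and medians only. Other steps used Python 3.11.15, pandas 2.3.3, numpy 2.4.6 and matplotlib 3.10.9. In data simulated with normal noise, a log2 change of 2 was set into 200 genes with a mean of at least 2 RPKM. The time comparison recovered 187 of 200 changed genes with 2 other calls, over 33020 genes, and the interaction 176 of 200 with 4 other calls, over 33541. Changes near the limit of 1 and changes in lower genes were not simulated, so their recovery is not known.

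The members, lists, tests and alternatives were chosen with earlier results of these data known. Named were the 12 largest rises and falls whose libraries did not overlap and whose higher mean was at least 10 RPKM, all gibberellin genes, up to 4 called members of each other list, the 3 largest chloroplast and mitochondrial falls, and the genes called for the difference; the annotated genes, those with the largest change in RPKM and the named genes of chromosome 1 were added after the values were seen, as were list members given for contrast. Gene names came from the study's tables, which in the copy used annotate 1782 genes. Part of these were chosen there on PBZ against control. The study's list of all expressed genes was at hand for chromosome 1 only, where it added 1228 genes outside that choice. A gene said here to have no annotation had none in that copy. The reference gene table matched 0 identifiers, so no sequence or position is given. Results were recomputed with a pseudocount of 1 or 0.01, without a filter or with one at 5 RPKM, with quantile or median-ratio scaling, without organelle-like genes, with all 18 libraries fitted together, with a replicate block, with sample weights, without a variance trend, without a minimum change and without each library in turn.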

Additional observations from a re-analysis of the deposited data

Results flagged for a closer look

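3 genes had a change from 24 to 36 HAI that differed between PBZ and control, by limma's interaction test with Benjamini-Hochberg adjustment over 33541 genes.

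Glyma.01G229300, without annotation and with means under 10 RPKM, so that it was named after its values were seen, was at 4.86, 5.23 and 4.76 RPKM at 24 HAI and 9.21, 7.76 and 7.76 RPKM at 36 HAI with PBZ. In control it was at 7.48, 7.80 and 7.98 RPKM and then 5.04, 5.45 and 4.43 RPKM, a move the other way. The difference was 1.36 ± 0.14 (SE; limma adjusted p = 0.038), and every PBZ library at 36 HAI was above every one at 24 HAI while the controls were all below.

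Glyma.10G034800, also without annotation, was at 18, 18.1 and 18.7 RPKM at 24 HAI and 9.08, 9.51 and 8.74 RPKM at 36 HAI with PBZ. The controls were at 10.6, 9.48 and 11.9 RPKM and 10.9, 11.3 and 12.4 RPKM, and these overlapped between times. The difference was -1.12 ± 0.13 (SE; limma adjusted p = 0.038).

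Glyma.12G232200, an organelle-like gene matched to ribosomal protein S18, was at 11.6, 16.6 and 15.9 RPKM and then 1.47, 0.853 and 1.45 RPKM with PBZ, and at 2.79, 1.67 and 2.44 RPKM and then 4.72, 4.77 and 16.5 RPKM in control. The difference was -5.10 ± 0.60 (SE; limma adjusted p = 0.039). Replicate 3 of the 36 HAI control, the highest of its group, held 5.16% of its summed RPKM in organelle-like genes against 0.197 and 0.238% in its partners, and the part of that share in the difference was not tested.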

How the results depend on the processing

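Under the alternatives run, none of 459 genes followed changed sign with a call, and the most calls were lost with a pseudocount of 1 (40), without replicate 1 at 24 HAI (33) and with quantile normalization (21). Rises and falls numbered 2348 and 946 with a filter at 5 RPKM, which tests fewer genes, and 9271 and 8110 with no minimum change. Quantile normalization gave 2250 falls. With no minimum change, falls outnumbered rises under quantile normalization (10181 against 7847) and without organelle-like genes (10047 against 8183). Median-ratio scaling then gave 8877 rises and 8834 falls. Leaving out 1 library gave 4111 to 4942 rises and 1184 to 1586 falls.

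The difference from the control change rested on few genes. More positive calls numbered 2 with a pseudocount of 1, 8 with 0.01, 6 with a filter at 5 RPKM, 4 with quantile normalization, 2 without the variance trend and 42 with sample weights; more negative calls numbered 5 with a pseudocount of 0.01, 1 with no filter, 4 with quantile normalization, 1 with organelle-like genes left out, 0 without the trend and 80 with sample weights. With 1 library left out they ranged from 0 to 12 and from 0 to 61. Leaving out the 36 HAI control replicates in turn gave 12 and 25 without replicate 1, 1 and 6 without replicate 2, and 8 and 61 without replicate 3. The cause was not tested.

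Among lists, 1 LEA gene rose with a pseudocount of 1 or with organelle-like genes left out, and 1 to 2 with 1 library left out; small heat shock proteins had 0 to 1 rises and 6 to 10 falls, the cell wall list 1 to 2 falls and the gibberellin list 7 to 11 rises. The organelle-like share differed by -0.366 points over the matched genes alone. With a pseudocount of 1, 5 gibberellin genes rose and 26 chromosome 1 genes fell.

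The replicate numbers were not taken to pair the samples: same-numbered PBZ samples of the 2 times had correlations of their deviations of 0.0116, 0.0141 and -0.0116. Same-numbered control and PBZ samples had 0.232, 0.217 and 0.0591 at 24 HAI and 0.0764, 0.263 and 0.124 at 36 HAI; not every pair passed 0.1, but each sample correlated best with its own number, a hint from the data and not from the design. With the replicate block 4645 genes rose and 1477 fell, 3 named genes lost their call, and the difference from control was called in 2 genes as more positive and in 5 as more negative. RPKM holds no read counts, so how far depth limited the calls of low genes could not be measured.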

Other observations

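Aquaporins, the water channels of the cell membranes, had 2 rises and 0 falls among 4 genes, where 14.2% of all genes outside the organelle-like set rose. Both rises were of genes annotated as PIP2;4, of which Glyma.12G075400 was at 8.04, 10.6 and 11.6 RPKM at 24 HAI and at 87.9, 79.7 and 59.8 RPKM at 36 HAI. The change was 2.90 ± 0.18 (SE, n = 3 per time; limma, Benjamini-Hochberg adjusted p = 0.00013). Glyma.11G146500 was at 0.238, 0.213 and 0.251 RPKM at 24 HAI and at 12.3, 10.1 and 7.42 RPKM at 36 HAI, with no overlap between times in either gene.

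Protease inhibitors had 3 rises and 4 falls among 7 genes, against 14.2% rises and 4.14% falls over all genes outside the organelle-like set. The Kunitz inhibitor Glyma.16G212200 was at 18.3, 10.7 and 14.3 RPKM at 24 HAI and at 3.25, 1.83 and 3.99 RPKM at 36 HAI, a change of -2.25, and the Bowman-Birk inhibitor Glyma.16G208900 was at 4.13, 2.27 and 2.50 RPKM at 24 HAI and at 0.561, 0.660 and 0.279 RPKM at 36 HAI, a change of -2.36. Both had all libraries at 36 HAI below all at 24 HAI.

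Of 4 histone genes tested 1 fell and 0 rose, with 2 falls without replicate 3 at 24 HAI or replicate 1 at 36 HAI, and of 3 DNA replication genes none was called, with a median of -0.43. The histone gene Glyma.11G241700 was at 97.9, 74.5 and 66.8 RPKM at 24 HAI and at 36.8, 35.5 and 31.9 RPKM at 36 HAI, a change of -1.18 ± 0.14 (SE; limma, Benjamini-Hochberg adjusted p = 0.00091). In control the values were 27.9, 29.7 and 33.5 RPKM and 37.7, 33.1 and 70.5 RPKM, and the difference between the time changes, -1.73, did not pass the test (limma adjusted p = 0.069). The value of 70.5 RPKM is that of the control library with a high share of organelle-like genes, and without it the difference was -1.40 and was called (limma adjusted p = 0.024). Of 7 cyclins and cyclin-dependent kinases 3 rose and 0 fell, with a median of 0.35. In this list 2 rose without replicate 1 at 24 HAI or replicate 2 or 3 at 36 HAI. Over all genes outside the organelle-like set 14.2% rose and 4.14% fell. Of 8 ribosome genes outside the organelle-like set that the study chose as higher with PBZ at 24 HAI, 5 fell and 0 rose, with a median of -1.15; 4 fell without replicate 1 and 8 without replicate 3 at 24 HAI. Of 5 spliceosome genes chosen in the same way 4 fell, with a median of -1.05, and 2 fell without replicate 1 at 24 HAI. These last lists were chosen on the 24 HAI PBZ libraries themselves, so their fall is not independent evidence.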
